A study of Mus musculus with 12 samples.

Results

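The genes described here encode the machinery that fills, docks and fuses synaptic vesicles. They are a named set of 33 genes: vesicle proteins, SNAREs and their partners, calcium sensors, Rab3 GTPases, active zone proteins and vesicular glutamate transporters. All 33 were found by symbol among the 33250 gene symbols of the count table, and all 33 passed the filter on low counts. Their levels come from polyA RNA of bulk hippocampus of adult male mice, with 1 library per animal. WT stands for the 6 wild-type mice and cKO for the 6 mice whose miR379-410 cluster was deleted conditionally. In the cKO animals Cre recombinase acts in Emx1-positive cells, which in the hippocampus are mainly the glutamatergic neurons and astrocytes of the dorsal forebrain lineage, whereas interneurons, microglia and vessels of the tissue arise outside it. The WT animals carry no deletion per the labels, which say nothing of floxed or Cre alleles in them. Strain and exact age were not given. Since the tissue is bulk, fewer cells of a type and less RNA per cell cannot be told apart.

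Neurotransmitter release begins when a vesicle, loaded by a transporter and clustered by synapsins, is tethered at the active zone, a protein scaffold under the presynaptic membrane. Rab3 GTPases on the vesicle bind RIM proteins of the scaffold, Munc13 proteins open syntaxin, and the SNAREs synaptobrevin, SNAP-25 and syntaxin zip together, held by complexins until calcium binds a synaptotagmin. NSF and its SNAP adaptors then take the spent SNARE complexes apart. In the hippocampus these genes are expressed by nearly all neurons, while some paralogs mark particular cells or pathways. A microRNA binds target transcripts mainly through its seed, a short stretch near its 5′ end, and usually lowers their level or their translation.

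The libraries held 42360624 to 51095816 counts, and mitochondrial genes took 6.86% to 8.01% of them. In the check of the labels, B830012L14Rik, a transcript annotated on the same strand shortly before the start of the cluster, was at 0.31 to 0.86 CPM (reads of a gene relative to library size, with TMM scaling) in the WT libraries and at 17.4 to 25.8 CPM in 5 of the 6 cKO libraries, but at 0.79 CPM in the library labelled cKO 1. Emx1 was at 8.38 to 9.60 CPM in WT, at 5.91 to 6.84 CPM in cKO 2 to cKO 6 and at 9.14 CPM in the library labelled cKO 1. That library therefore stands with the WT libraries on both genes. The values of Pclo, Syn3, Rims1, Rims2, Rab3b, Syt2, Syt4, Doc2a, 2 ratios and Stxbp5l are also given without it. Mirg, a non-coding transcript that overlaps the cluster, was at 30.7 ± 2.39 CPM in the WT and 34.1 ± 7.31 CPM in the cKO animals (SD, n = 6 each). The mature miRNAs themselves were not analysed here. The summed level of 9 choroid plexus genes ran from 57.8 CPM in cKO 4 and 88.5 CPM in WT 2 to 8322 CPM in WT 1. All 10 pan-neuronal markers had a mean of at least 1 CPM and none was at 0, with summed levels of 5345 to 6096 CPM in WT and 4990 to 6347 CPM in cKO.

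The 33 genes together made up 17003 ± 873 CPM in the WT and 16701 ± 762 CPM in the cKO animals (SD, n = 6 each), which is 1.70% and 1.67% of the reads. To compare genes with one another, levels were divided by the length of the longest protein-coding transcript. On this scale Snap25, the SNARE of the presynaptic membrane, led with 902 ± 44.1 CPM per kb in WT. Vamp2, the vesicle SNARE synaptobrevin 2, followed at 496 ± 30.4 CPM per kb and did not differ in rank beyond its spread from Slc17a7, the glutamate transporter VGLUT1, at 492 ± 32.8 CPM per kb. Syp, the vesicle membrane protein synaptophysin, was at 449 ± 28.1 CPM per kb. Cplx2, Syt1, Nsf, Rab3a and Cplx1 formed a tier from 299 to 240 CPM per kb, within which every neighbouring pair overlapped in its WT ranges. The lowest were Unc13b at 5.13 ± 0.32, Syt2 at 4.98 ± 1.84, Slc17a6 at 3.58 ± 1.80 and Syn3 at 2.57 ± 0.41 CPM per kb, whose WT ranges also overlapped from each gene to the next. Of the 32 neighbouring pairs in the whole order, 23 had overlapping WT ranges. The order depends on the transcript length chosen: with the median length of a gene's protein-coding transcripts, Syngr1, Syt7, Nsf, Rab3c and Unc13a moved by 5 or more places and Nsf stood first ahead of Snap25. The plot of levels per kilobase shows how closely the genotypes track each other along this order.

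**Figure D1:**
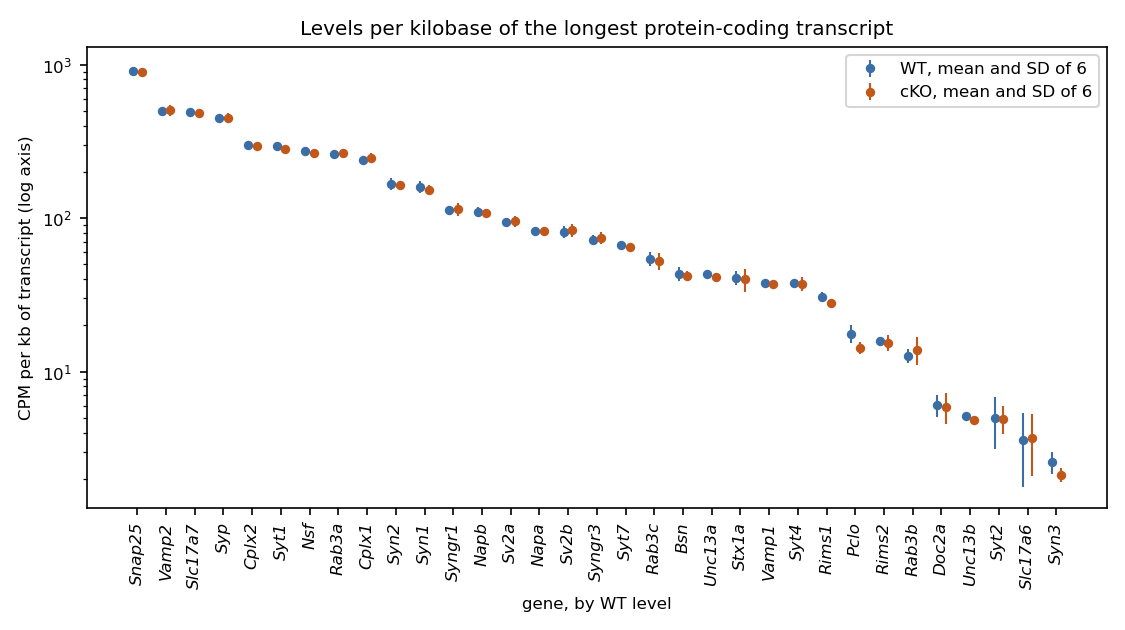
Level of each gene in CPM per kilobase of its longest protein-coding transcript (log axis), with genes ordered by WT level. Points are means of 6 WT (blue) and 6 cKO (orange) animals and bars are SDs, and the levels run from 902 CPM per kb for Snap25 to 2.57 CPM per kb for Syn3 in WT.

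Between genotypes, none of the 33 genes passed an adjusted p of 0.05 in edgeR's quasi-likelihood test, in which 2 of 19325 genes tested (0.0103%) did. By the same test at an unadjusted p under 0.05, 3 of the 33 were lower in cKO (Pclo, Syn3 and Rims1) and 0 were higher. Of all genes tested, 9.54% reached that p, 6.34% in the lower and 3.2% in the higher direction. DESeq2 and limma-voom also passed none of the 33 after adjustment. The estimates were small: 23 genes lay below 0 and 10 above, with a median log2 fold change (cKO over WT) of -0.03, beside 0.01 for all genes tested, of which 46.6% lay below 0. For 27 of the 33, the 95% interval excluded a change of 1.2-fold or more in either direction. The exceptions were Syn3, Syt2, Doc2a, Rab3b, Pclo and Slc17a6. Of all 19325 genes tested, 10170 had such an interval. These intervals include the library labelled cKO 1. The plot of fold changes shows the intervals by role.

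**Figure D2:**
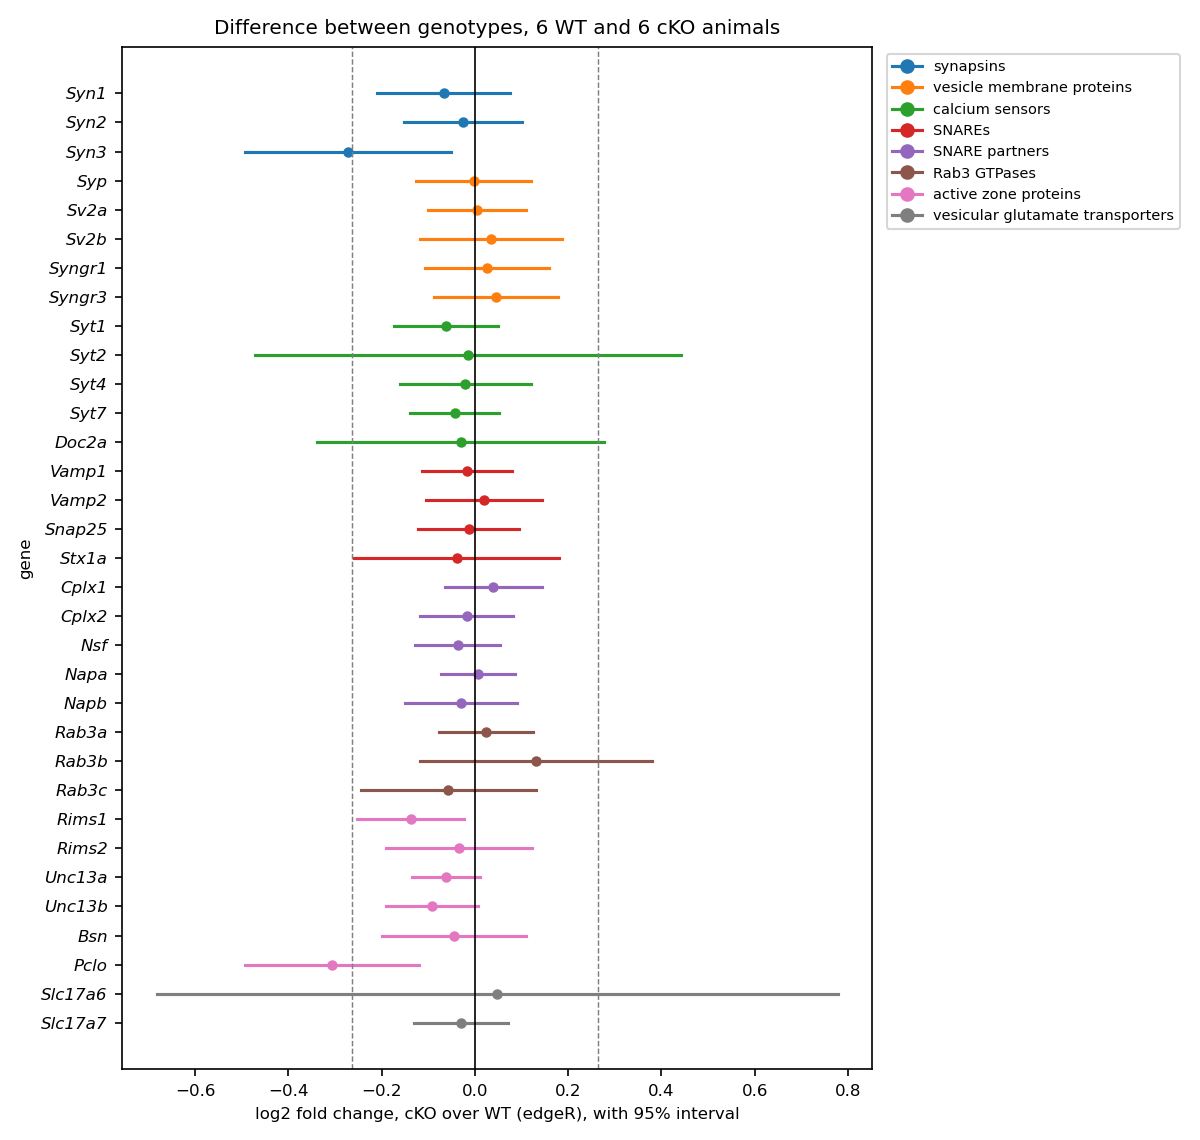
Log2 fold change of each gene, cKO over WT, from edgeR (points) with its 95% interval (lines), coloured by role. Dashed lines mark a 1.2-fold change in either direction. Most intervals lie between them, those of Slc17a6 and Syt2 are the widest, and those of Pclo, Syn3 and Rims1 lie wholly below 0.

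Vesicle membrane proteins had 4 estimates above 0 and 1 below, with a median log2 fold change of 0.03. The one below was Syp, at -0.0024, which became 0.0066 with library totals alone as the scaling. Syp was at 1164 ± 72.8 CPM in the WT and 1162 ± 91.1 CPM in the cKO animals (SD, n = 6 each), and its interval ran from a change of -8.4% to 8.7%. Sv2a, the vesicle glycoprotein that binds the antiepileptic drug levetiracetam, read 383.5, 413.2, 424.8, 421.3, 426.3 and 400.8 CPM in WT 1 to 6 and 376.2, 418.9, 392.4, 464.6, 429.2 and 396.9 CPM in cKO 1 to 6. The cKO values of Sv2a lie on both sides of the WT range, and its change was within -6.7% to 7.9%. Its paralog Sv2b was at 452 ± 41.7 and 463 ± 43.8 CPM, and the synaptogyrins Syngr1 and Syngr3, vesicle proteins related to synaptophysin, had log2 fold changes of 0.03 ± 0.06 and 0.04 ± 0.06 (SE).

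The synapsins, phosphoproteins that tether vesicles in the reserve pool, had all 3 estimates below 0, with a median log2 fold change of -0.07. Syn1 was at 523 ± 49.9 CPM in the WT and 499 ± 36.7 CPM in the cKO animals, and Syn2 at 643 ± 58.64 and 631 ± 32.96 CPM, with edgeR adjusted p of 0.806 and 0.927. Syn3, the scarcest of the family and of all 33 genes per kb, read 9.99, 9.98, 8.29, 10.97, 13.16 and 9.36 CPM in WT 1 to 6 and 9.31, 9.28, 8.29, 7.12, 9.07 and 8.13 CPM in cKO 1 to 6. All 6 cKO values of Syn3 lie under the WT mean of 10.3 CPM, but only 2 lie under the lowest WT library. Its log2 fold change was -0.27 ± 0.10 (SE), with an unadjusted p of 0.0198 and an edgeR adjusted p of 0.440, and without the library labelled cKO 1 it was -0.31 ± 0.11 (SE), edgeR adjusted p 0.250. The Syn3 locus (GRCm38, chr10:86055125-86498896, minus strand) hosts Timp3 on the opposite strand, and their annotated exons share 1733 bases. No strand setting is stated, so reads from these bases cannot be assigned to either gene.

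Among the calcium sensors, all 5 estimates lay below 0, between -0.06 for Syt1 and -0.01 for Syt2 on the log2 scale. That of Syt2 was 0.03 in limma-voom. Without the library labelled cKO 1, Syt2 (0.049), Doc2a (0.007) and Syt4 (0.0002) lay above 0. The median of the group ran from -0.083 to 0.004 under the alternatives, so the shared direction was not stable. Syt1, the sensor of fast synchronous release, was at 1422 ± 88.8 CPM in the WT and 1363 ± 80.0 CPM in the cKO animals. Its change was bounded between -11.3% and 3.5%. Syt7, the slower high-affinity sensor linked to asynchronous release and facilitation, was at 444 ± 23.0 and 431 ± 24.5 CPM, and Syt4, a synaptotagmin of dense-core vesicles, at 147 ± 10.01 and 145 ± 14.90 CPM. Doc2a, a sensor of spontaneous and asynchronous release, was at 15.30 ± 2.45 and 14.99 ± 3.35 CPM. Its annotated exons share 1103 bases with Ino80e on the opposite strand. Syt2, a fast sensor of brainstem, thalamic and parvalbumin-type neurons, had the widest interval of the group, from -27.8% to 35.8%, and is taken up below with Slc17a6.

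All 4 SNAREs had intervals within a 1.2-fold change. Snap25 was at 1909 ± 93.3 CPM in the WT and 1891 ± 122 CPM in the cKO animals, and Vamp2 at 1095 ± 67.0 and 1110 ± 90.9 CPM, with intervals from -8.1% to 6.8% and from -7.0% to 10.4%. Vamp1, the synaptobrevin of fast-spiking and projection neurons, was at 114 ± 6.18 and 113 ± 6.72 CPM. Stx1a, the syntaxin of the presynaptic membrane, was the least even of the 4 and read 81.9, 80.0, 101.3, 94.3, 95.8 and 77.7 CPM in WT 1 to 6 against 77.5, 77.4, 73.4, 102.5, 106.7 and 79.7 CPM in cKO 1 to 6. Of the cKO libraries, 3 lay under and 2 over every WT library, with a log2 fold change of -0.04 ± 0.10 (SE).

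The 5 partners of the SNAREs had 2 estimates above 0 and 3 below. Cplx1 and Cplx2, the complexins that clamp and prime the assembled complex, had log2 fold changes of 0.04 ± 0.05 and -0.02 ± 0.05 (SE). Nsf, the ATPase that disassembles SNARE complexes, was at 1027 ± 57.9 CPM in the WT and 1001 ± 33.2 CPM in the cKO animals. Its adaptors Napa (alpha-SNAP) and Napb (beta-SNAP) had log2 fold changes of 0.01 ± 0.04 and -0.03 ± 0.06 (SE). Napa had one of the narrowest intervals, from -4.9% to 6.2%. Of the Rab3 GTPases, Rab3a and Rab3c were at 405 ± 20.9 and 461 ± 47.9 CPM in WT and at 412 ± 27.1 and 443 ± 57.1 CPM in cKO. Rab3b read 41.5, 39.5, 49.3, 44.0, 43.5 and 35.9 CPM in WT 1 to 6 and 34.8, 44.9, 42.1, 62.4, 50.3 and 43.3 CPM in cKO 1 to 6. The library cKO 4 is the highest of all 12 for Rab3b and the library labelled cKO 1 the lowest. The log2 fold change of Rab3b, 0.13 ± 0.12 (SE), was the highest of the 33, at an edgeR adjusted p of 0.779, and it was 0.03 without cKO 4 and 0.19 without the library labelled cKO 1.

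Of the 3 members at an unadjusted p under 0.05 in edgeR, 2 belong to the active zone. At that p stood 3 of 33 members and 9.54% of all genes tested, so the split by role is only a description. All 6 active zone estimates lay below 0, with a median log2 fold change of -0.08. They did so under each of the 21 alternatives, which reuse the same 12 libraries. Rims2 came nearest to 0, at -0.0005 without the library labelled cKO 1. Pclo encodes piccolo, a giant scaffold protein that organises presynaptic actin and vesicle clusters. It lies at chr5:14514918-14863459 on the plus strand of GRCm38. It read 280.3, 374.2, 321.1, 362.6, 410.0 and 385.2 CPM in WT 1 to 6 and 334.6, 294.7, 251.1, 275.5, 286.4 and 283.8 CPM in cKO 1 to 6. All 6 cKO values lie under the WT mean of 356 CPM, the highest of them is the library labelled cKO 1, and the lowest WT library, WT 1, lies within the cKO range. The log2 fold change was -0.31 ± 0.09 (SE), a change of -28.9% to -7.9% by its 95% interval, with an unadjusted p of 0.0036 and an edgeR adjusted p of 0.349. Without the library labelled cKO 1 it was -0.36 ± 0.08 (SE) with an edgeR adjusted p of 0.0988.

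Rims1 encodes RIM1, which links Rab3 to Munc13 and to calcium channels, and lies at chr1:22286251-22805994 on the minus strand. It read 168.7, 198.4, 215.0, 196.9, 203.5 and 200.5 CPM in WT 1 to 6 and 192.4, 176.0, 166.5, 182.1, 188.7 and 169.5 CPM in cKO 1 to 6. As for Pclo, all 6 cKO values lie under the WT mean and WT 1 is the lowest WT library. Its log2 fold change was -0.14 ± 0.05 (SE), with an unadjusted p of 0.0227 and an edgeR adjusted p of 0.451. Without the library labelled cKO 1 it was -0.17 ± 0.05 (SE), edgeR adjusted p 0.209. Leaving out WT 2, WT 3 and cKO 4, which had the least choroid plexus signal, it was -0.11 and the unadjusted p was 0.116. Rims2, its paralog, had a log2 fold change of -0.03 ± 0.07 (SE). The priming factors Unc13a (Munc13-1) and Unc13b (Munc13-2) were at 445 ± 19.6 and 75.7 ± 4.76 CPM in WT and at 426 ± 11.6 and 71.0 ± 3.59 CPM in cKO. All 6 cKO values lay under the WT mean for each. As for Pclo, Syn3 and Rims1, the share of all genes tested with this pattern is not given here. For Unc13a and Unc13b, edgeR gave an unadjusted p of 0.0874 and 0.0641 and an adjusted p of 0.596 and 0.556. Bsn encodes bassoon, the other giant scaffold. It was at 693 ± 76.5 and 672 ± 46.5 CPM.

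A ratio of 2 genes within a library does not depend on the scaling between libraries, so 14 ratios of related members were compared between genotypes by an exact two-sided permutation test (924 splits, smallest possible p 0.0022), with adjustment over the 14. None passed an adjusted p of 0.05. The log2 ratio of Pclo to Bsn read -0.98, -0.95, -1.08, -0.93, -0.84 and -1.01 in WT 1 to 6 and -1.03, -1.24, -1.56, -1.30, -1.12 and -1.12 in cKO 1 to 6. In 5 of 6 cKO libraries the ratio lay under every WT library, and the exception was the library labelled cKO 1. The means were -0.97 ± 0.08 and -1.23 ± 0.19 (SD, n = 6 each), a difference of -0.26 with an exact permutation p of 0.0043 and an adjusted p of 0.0606. Without the library labelled cKO 1 the difference was -0.30 with the same exact p and adjusted p. With 1 library left out, 0.0043 is the smallest p this permutation test can give. A ratio that reaches it alone therefore has an adjusted p of 0.0606 over the 14 and could not pass. The other 13 ratios had adjusted p of 0.730 or more, among them those of Rims2 to Rims1 (difference 0.10), Unc13b to Unc13a (-0.03) and Vamp1 to Vamp2 (-0.03). Without the library labelled cKO 1 the difference of Rims2 to Rims1 was 0.16, with an exact permutation p of 0.0087 and an adjusted p of 0.0606. Without WT 1, that of Rab3c to Rab3a went from -0.08 to -0.14, with an exact permutation p of 0.0173 and an adjusted p of 0.121. The difference of Slc17a6 to Slc17a7, 0.12 over all 12 libraries, ran from -0.06 (without cKO 5) to 0.33 (without WT 5) when 1 library was left out. Without WT 2, WT 3 and cKO 4 together it was -0.13.

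The sequence that a cluster miRNA could pair with in these transcripts was read from the longest annotated 3′ UTR of each gene. RefSeq's table for GRCm38.p6 held 35 hairpins and 69 mature miRNAs between Mir379 and Mir410, with 63 distinct seeds (positions 2 to 8 from the 5′ end). Some mature miRNAs of the cluster have no entry there, so the matches counted here cover a part of the cluster. Every one of the 33 genes held at least 1 match, 353 in all, at a density of 4.17 matches per kb, and all tested 3′ UTRs together held 4.17 per kb. Pclo was among the sparsest, with 8 matches in 4573 bases (1.75 per kb), and Syn3 and Rims1 held 13 and 10 (4.28 and 4.61 per kb). Across 63 seeds, 1 had a match in all 3 of Pclo, Syn3 and Rims1, that of miR-323-5p, and it was picked after these values were seen. Its match was also in Cplx1 and Rab3a, whose estimates lay above 0, and in 7.25% of all tested 3′ UTRs. The miRNA and its matches are shown with the seed and the matched bases in capitals.
miR-323-5p: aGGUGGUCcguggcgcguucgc
Pclo (chr5:14861385-14861412, plus strand): agttacaccttacacagaggGACCACCa
Syn3 (chr10:86294176-86294203, minus strand): atctgccaggaatcaattagGACCACCa
Rims1 (chr1:22286456-22286483, minus strand): tatcccacggggcacagattGACCACCa
Cplx1 (chr5:108519787-108519814, minus strand): aggccccgagggccagccctGACCACCc
Rab3a (chr8:70758388-70758415, plus strand): ggctgggggatcgccatatgGACCACCt
In Pclo, Syn3 and Rims1 the match is followed by an A, the base that lies opposite position 1 of the miRNA, and in Cplx1 and Rab3a it is not. Over the 63 seeds read, an A followed 5 of 8 matches in Pclo, 6 of 13 in Syn3 and 3 of 10 in Rims1. It followed 1 of 7 in Cplx1 and 3 of 5 in Rab3a. The Syn3 match lies well inside the gene, whose annotated 3′ end on the minus strand is at chr10:86055125. Whether Syn3 transcripts that reach this end hold it, or the other Syn3 matches counted here, was not examined. A match is a description of letters and was not tested for binding.

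The 3 genes at an unadjusted p under 0.05 are also among the longest of the 33 in the genome, at 349 kb for Pclo, 444 kb for Syn3 and 520 kb for Rims1. Syt1 at 513 kb and Rims2 at 486 kb are longer than Pclo and Syn3, with log2 fold changes of only -0.06 and -0.03. Across the 33 genes, Spearman's rho of the log2 fold change with genomic length was -0.55, given as a description because genes are not independent and share the 12 libraries. Across all 15481 tested protein-coding genes it was -0.24. Of 11 members spanning 100 kb or more, 10 had estimates below 0 (median log2 fold change -0.06), and 65.6% of all protein-coding genes of that size did. Sv2b was the exception. Of 22 shorter members 13 lay below 0 (median -0.01), beside 38.8% of all shorter genes. The limit of 100 kb was chosen after the values were seen. Just inside it stood Syt2 at 116 kb, with -0.01, and just outside it Bsn at 94.4 kb, with -0.04.

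**Figure D3:**
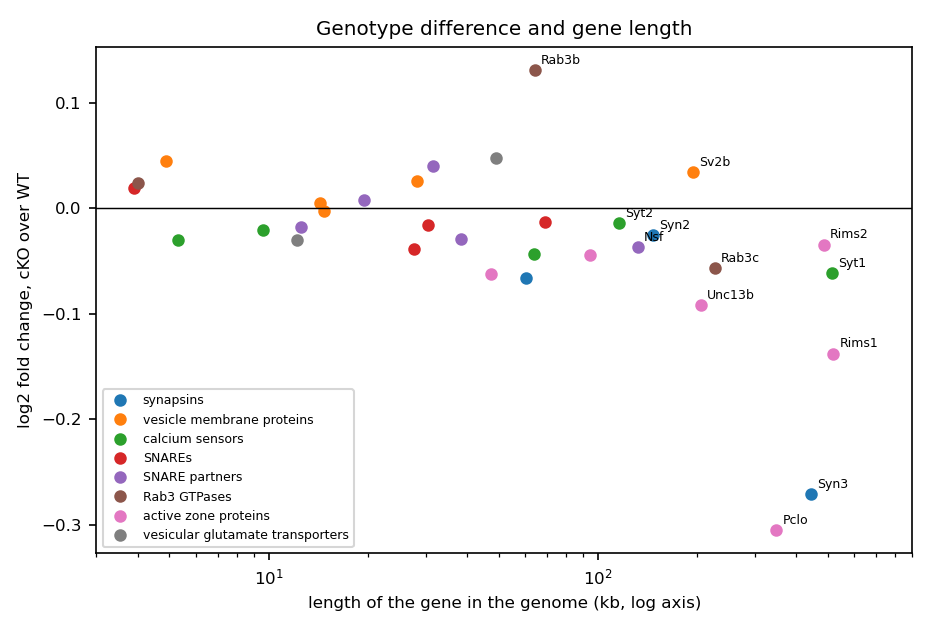
Log2 fold change of each gene, cKO over WT, against the length of the gene in the genome (kb, log axis), coloured by role. Genes of 100 kb or more and those with the largest estimates are named, and Pclo, Syn3 and Rims1 lie lowest at the right.

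The genes whose levels moved most closely with Pclo between animals were ranked by Pearson's r of log2 CPM, as deviations from the genotype mean, over the 12 libraries and 12144 genes of at least 5 CPM. This ranking was added after the values were seen and carries no test. Herc1 (r = 0.99), Ppp1r9a, Myo9a, Unc80, Lmbrd2 and Man1a2 came first. Among them, Ppp1r9a encodes the actin-binding protein neurabin and Unc80 a subunit of the sodium leak channel. Herc1 read 244.6, 289.2, 263.8, 291.1, 314.6 and 295.1 CPM in WT 1 to 6 and 274.1, 246.0, 227.3, 236.4, 241.4 and 245.3 CPM in cKO 1 to 6. As for Pclo, WT 1 was its lowest WT library and the library labelled cKO 1 its highest cKO library. The 50 genes most like Pclo had a median longest transcript of 9.90 kb, where all ranked genes had 3.45 kb, and a median genomic length of 167 kb, where all had 26.5 kb. All 50 had estimates below 0, with a median log2 fold change of -0.20. The deviations include the library labelled cKO 1, which stood with the WT libraries on B830012L14Rik and Emx1. A gene lower in the other cKO libraries than in WT could rank high through that library. The count of 50 is therefore not a result separate from the ranking. Rims1 ranked 800 in likeness to Pclo (r = 0.65, and 0.61 within WT and 0.74 within cKO) and Syn3 ranked 1271 (r = 0.53, and 0.52 and 0.56). For Bsn, at rank 1036, the r of 0.58 describes neither genotype, since it was 0.92 within WT and -0.26 within cKO.

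Other cell markers moved between the same libraries. The summed level of 7 dentate granule neuron markers was 551 ± 46.6 CPM in the WT and 482 ± 98.7 CPM in the cKO animals, with all 7 estimates below 0, and that of 6 neocortex markers 345 ± 23.8 and 319 ± 25.9 CPM, with all 6 below 0. All 8 endothelial and mural markers lay above 0, with sums of 255 to 289 CPM in WT and 302 to 367 CPM in cKO. These ranges did not overlap, and the library labelled cKO 1, at 302 CPM, was the lowest of the cKO libraries. How many of all genes tested have ranges apart is not given here. None of these markers passed an adjusted p of 0.05 in edgeR. Their part in the differences of Pclo, Syn3 and Rims1 was not tested.

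The vesicular glutamate transporters differed most in how even they were. Slc17a7 (VGLUT1), the transporter of most hippocampal and cortical excitatory neurons, was at 1433 ± 95.6 CPM in the WT and 1404 ± 46.0 CPM in the cKO animals, within -8.7% to 5.0%. Slc17a6 (VGLUT2), the transporter of thalamic and other subcortical excitatory neurons and of some subicular and retrosplenial ones, had the largest spread of all 33 genes. It read 20.6, 7.6, 16.6, 10.1, 25.8 and 8.2 CPM in WT 1 to 6 and 9.4, 13.5, 8.5, 19.5, 26.2 and 14.9 CPM in cKO 1 to 6, a range of 3.47-fold over animals. High and low animals occur in both genotypes. The log2 fold change of 0.05 ± 0.34 (SE) allows any change from -37.7% to 71.5%.

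Syt2 followed Slc17a6 from animal to animal. It read 44.12, 21.01, 33.74, 26.71, 54.20 and 25.92 CPM in WT 1 to 6 and 25.37, 36.10, 28.28, 38.16, 44.52 and 31.41 CPM in cKO 1 to 6. In the same ranking by deviations from the genotype means, Syt2 stood at place 10 of 12144 (r = 0.95 over 12 libraries), Vamp1 at place 56 (r = 0.89) and Slc17a7 at 9360 (r = -0.27). First came Tshz2, a zinc-finger transcription factor, with r = 0.99. It read 98.9, 38.8, 81.5, 57.9, 113.9 and 40.1 CPM in WT 1 to 6 and 49.6, 61.9, 41.4, 92.5, 104.5 and 67.3 CPM in cKO 1 to 6. Ttc9, Bmper, Vwc2l and Gm19410 were also among the genes most like it, with r of 0.95 or more. All of these points share the library, its depth and its dissection.

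**Figure D4:**
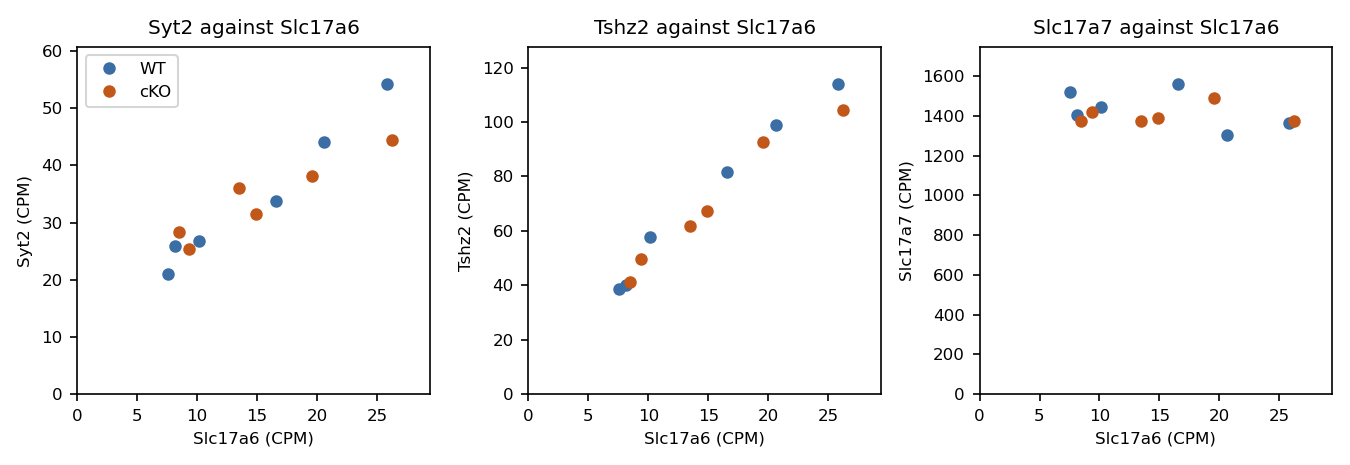
Level of Syt2, Tshz2 and Slc17a7 (CPM, vertical axes) against that of Slc17a6 (CPM, horizontal axes) in 6 WT (blue) and 6 cKO (orange) libraries. Syt2 and Tshz2 climb with Slc17a6 in both genotypes, from 21.01 to 54.20 CPM and from 38.8 to 113.9 CPM, and Slc17a7 stays between 1305 and 1559 CPM.

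Summed levels of 2 marker lists were set against these genes, as 5 correlations over 12 libraries with adjustment over the 5, and none passed an adjusted p of 0.05. The sum of 13 thalamus and habenula markers, 357 to 402 CPM, says little about a small share of such cells, because Adarb1 and Ptpn4, which are broadly expressed here, supply 69.8% of it. Its Pearson's r was -0.22 with Slc17a6 (permutation p = 0.509, Spearman's rho -0.05, permutation p = 0.884, adjusted p 0.820 for r, and r = 0.08 without cKO 4 and WT 3, the 2 libraries farthest from its median), -0.07 with Syt2 and -0.10 with Vamp1. Single genes of the list differed, read after the values were seen and with no test. Ramp3 read 3.77, 2.27, 3.17, 3.00, 3.27 and 2.06 CPM in WT 1 to 6 and 2.81, 3.13, 3.18, 3.32, 3.61 and 3.31 CPM in cKO 1 to 6, with r of 0.86 within WT and 0.82 within cKO against Slc17a6 on the log2 scale. Rgs16 had 0.74 and 0.95, whereas Tcf7l2 had 0.15 and -0.09 and Prkcd -0.21 and -0.51.

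The sum of 7 parvalbumin interneuron markers is likewise carried by Gad1, Kcnc1 and Gad2, which supply 86.1% of it. With this sum Syt2 had r = 0.15, which was -0.29 within WT and 0.79 within cKO. Rab3b had r = 0.64 (permutation p = 0.0174) and rho = 0.64 (permutation p = 0.0283), with an adjusted p of 0.0871 for r and 0.141 for rho. For Rab3b, r was 0.58 without WT 1 and cKO 1, 0.21 within WT and 0.87 within cKO. Pvalb itself, the gene of the calcium buffer parvalbumin, read 25.3, 15.8, 20.1, 19.6, 20.8 and 16.8 CPM in WT 1 to 6 and 16.9, 22.7, 17.1, 22.7, 22.1 and 20.03 CPM in cKO 1 to 6. On the log2 scale its r with Syt2 was 0.80 within WT and 0.90 within cKO, and with Slc17a6 0.82 and 0.83. Every other gene of the list had a negative r within WT with both Syt2 and Slc17a6. With Syt2 these ran from -0.55 (Tac1) to -0.10 (Erbb4) within WT, and from 0.33 (Erbb4) to 0.94 (Tac1) within cKO. All these values were also read after the data were seen and carry no test. The part of any of these cells in the spread of Slc17a6 and Syt2 was not tested.

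Read library by library, most of the 33 genes moved together. In WT 3, 30 of them lay above their own median over the 12 libraries, and in cKO 4, 25 did, 13 of which were at their highest of all 12. In WT 1, in the library labelled cKO 1, in cKO 3 and in cKO 6, 26, 27, 28 and 26 lay below it. The pan-neuronal sum ran in parallel, reaching 6096 CPM in WT 3 and 6347 CPM in cKO 4 against 5345, 4990, 5217 and 5444 CPM in WT 1, cKO 1, cKO 3 and cKO 6. The choroid plexus sum was 579 and 57.8 CPM in WT 3 and cKO 4 and 8322, 4495, 5576 and 5477 CPM in the other 4. Oligodendrocyte markers summed to 2804 CPM in cKO 4 and dentate markers to 328 CPM, the lowest of the 12 for each. The part of these in the shared movement was not tested. Pclo, Syn3, Napa, Slc17a6 and Syt2 are among the genes that depart from the common pattern in the heat map. The library cKO 4 is high for most genes but low for Pclo, and it is the lowest of all 12 for Syn3 and Napa. Napa was highest in WT 1 (223.8 CPM) and in the library labelled cKO 1 (221.2 CPM), which are low for most genes.

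**Figure D5:**
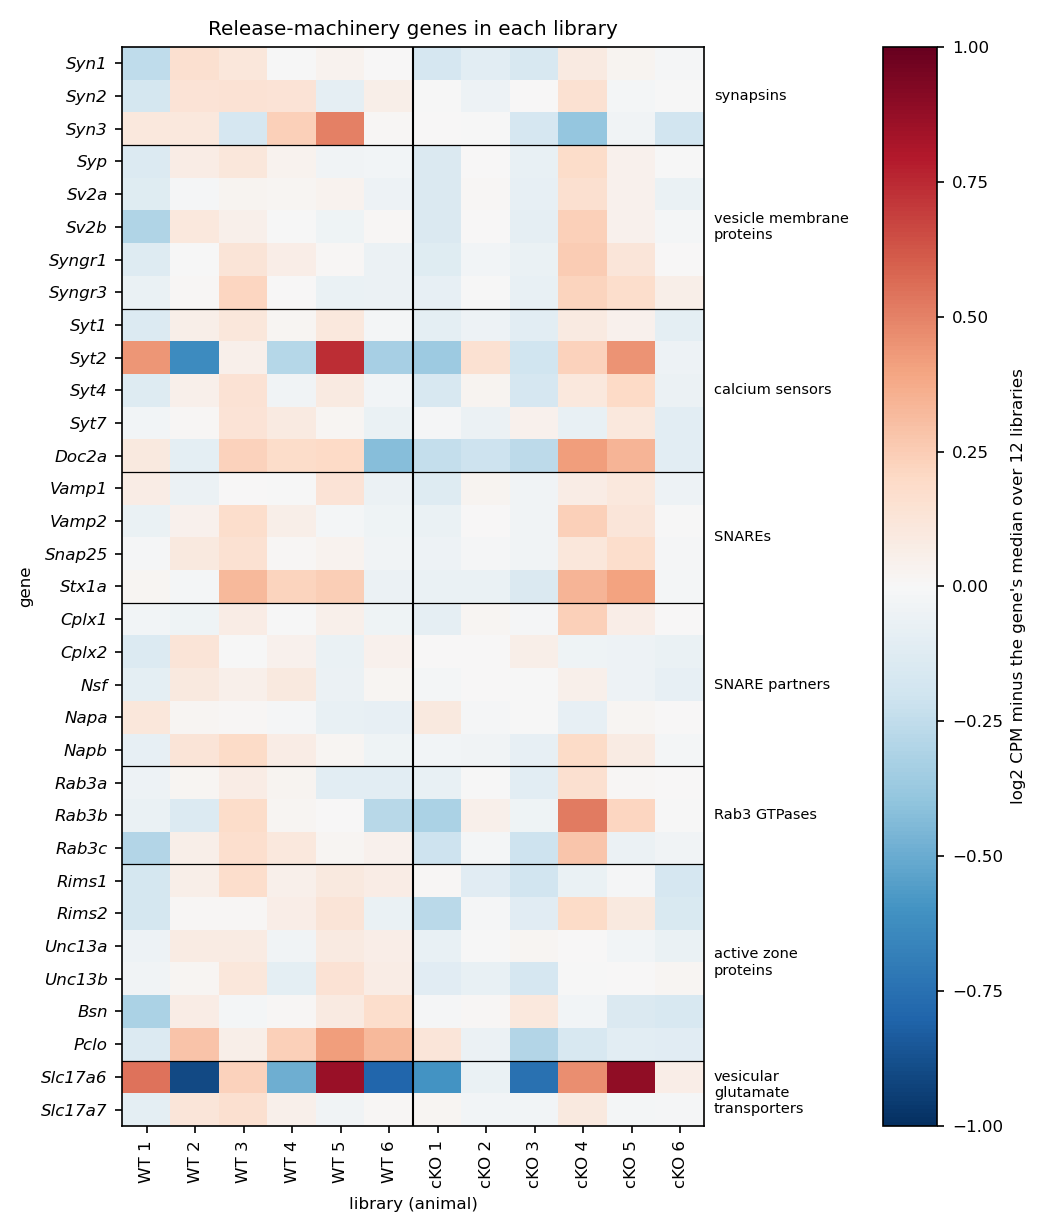
Deviation of each gene's log2 CPM from its median over the 12 libraries (red above, blue below), with libraries in columns and genes in rows by role. WT 3 and cKO 4 are red and WT 1, cKO 1 and cKO 3 blue for most genes, while Slc17a6 and Syt2 follow a pattern of their own.

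Beyond the 33, a list of 90 other genes of vesicle traffic was read, of which 89 were in the table and tested (Vamp7 had no row under that symbol). None passed an adjusted p of 0.05 in edgeR. At an unadjusted p under 0.05, 6 were lower and 1 was higher, beside the 6.34% and 3.2% of all genes given above, and the median log2 fold change was -0.01. By group, 11 of 15 subunits of the vesicle proton pump lay above 0 (median 0.02), and 15 of 19 vesicle recycling genes (median -0.03) and 10 of 13 other active zone and Rab3 genes (median -0.02) lay below it. Those with the smallest p in the lower direction were Itsn2, an endocytic scaffold, Stxbp5l and Stxbp5, the tomosyns that hold SNAREs back, and Cltc, the clathrin heavy chain. Itsn2 was at 89.4 ± 4.00 CPM in the WT and 82.4 ± 2.08 CPM in the cKO animals, with an edgeR adjusted p of 0.346. For Itsn2, 5 of 6 cKO libraries lay under every WT library, and the share of all genes tested that do so is not given here. Stxbp5l was at 47.0 ± 11.9 and 29.9 ± 9.995 CPM, with a log2 fold change of -0.65 ± 0.21 (SE) at an edgeR adjusted p of 0.368, and Stxbp5 was at 135 ± 8.48 and 123 ± 8.10 CPM. Stxbp5l was high in the library labelled cKO 1, at 49.1 CPM, and at 20.97 to 30.49 CPM in the other 5 cKO libraries, while WT 3 was at 27.5 CPM. Without the library labelled cKO 1 its log2 fold change was -0.86 ± 0.17 (SE), edgeR adjusted p 0.0883. In the higher direction the smallest p were those of Syt9, a calcium sensor, at 7.04 ± 1.42 and 8.63 ± 1.24 CPM (log2 fold change 0.29 ± 0.14 (SE), edgeR adjusted p 0.521), the pump subunits Atp6v0b and Atp6ap2, and Snap29.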

How the data were processed

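The authors deposited 1 table of expected counts per gene symbol and animal. The submitters' processing notes name Salmon 1.3.0 and GRCm38, with no annotation or strand setting stated. Expected counts (24.8% to 25.9% not whole) were rounded and tested with edgeR 4.0.16 in R 4.3.3: quasi-likelihood fit, TMM scaling, filterByExpr (count minimum 10, total 15), genotype alone, Benjamini-Hochberg adjustment over all 19325 genes tested, threshold 0.05. The fit was tested on simulated data. CPM are TMM-scaled. Ratios had a pseudocount of 0.5 counts. Correlations used 100000 resamples with scipy 1.17.1. Lengths, positions and 3′ UTRs came from GENCODE M21. Chi-square per degree of freedom was at least 8.36 between libraries of a genotype. The labels number animals within a genotype, and p-values measure the spread between animals.

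All 33 members were named, and of the other release genes up to 4 per direction with the smallest p. The members, lists and tests were chosen with earlier results of these data known. Alternatives were RLE, upper-quartile and no scaling, 2 other filters, DESeq2 1.42.0, limma-voom 3.58.1, a replicate block, each library left out, and WT 2, WT 3 and cKO 4 left out together. 1 gene of the likeness ranking is not reported here.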

Additional observations from a re-analysis of the deposited data

Results flagged for a closer look

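By genotype, 96 groups of 6 libraries were examined, among them those of each member and each ratio. In 6 groups, 1 library was set apart from the rest of its group by more than chance allows in 1 of 20 groups. Chance at that rate would give 4.8 such groups. The library cKO 4 was highest of its group for Syn2 at 696 CPM, for Rab3c at 548 CPM and for Slc17a7 at 1491 CPM. WT 3 was highest for Syngr3 at 164 CPM. WT 1 was lowest for Rab3c at 370 CPM and for the log2 ratio of Rab3c to Rab3a at -0.10.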

How the results depend on the processing

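No member passed an adjusted p of 0.05 under any of the 21 alternatives, and 0 of 693 member values moved by more than 1 SE. The log2 fold change kept its sign in 17 members, and the median over members stayed between -0.06 and -0.01. Pclo ranged from -0.37 to -0.26 (adjusted p 0.0570 to 0.702, and 0.0667 in DESeq2), with an unadjusted p under 0.05 in 21 of 21 alternatives, as did Syn3, and Rims1 in 19. The number of members lower at an unadjusted p under 0.05 ranged from 3 to 6 when 1 library was left out, being 6 without WT 1 (Syn1, Unc13a and Unc13b were added) and 5 without WT 4. The 2 genes past the adjusted threshold among all genes became 1 with no filter, 1 with the filter of at least 1 CPM in 6 libraries, 83 in DESeq2, 0 in limma-voom and 0 without WT 2, WT 3 and cKO 4, and 0 to 6 when 1 library was left out (6 without cKO 1). Other release genes higher at an unadjusted p under 0.05, 1 in all, were 0 with upper-quartile scaling, 0 with the filter of at least 1 CPM and 0 to 2 without 1 library. Those lower, 6 in all, were 16 without WT 1, 3 without WT 2, WT 3 and cKO 4. The cause was not tested. The share of all genes tested at that p in these settings is not given here. A rise in these counts therefore cannot be read as particular to release genes. The adjusted p of the Pclo to Bsn ratio was 0.0606 to 0.222. The highest, without WT 2, WT 3 and cKO 4, came with an exact permutation p of 0.0159. That is the smallest p possible with so few libraries, so this ratio alone could not pass there.

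Animals with the same number did not deviate together (correlations -0.27 to 0.25, over 0.1 in 2 of 6 pairs, and 2 libraries correlated best with their own number), so the numbers pair nothing. With the replicate block, 0 of all genes passed and 0 other release genes were higher at an unadjusted p under 0.05, and Rims1 had an unadjusted p of 0.0606.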
